A study of Sus scrofa with 6 samples.

Results

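The core circadian clock genes NR1D1, NR1D2, PER1, PER2, PER3, CRY1, CRY2, BMAL1, CLOCK and NPAS2 were examined in the subcutaneous fat of pigs. These 10 genes are the activators and repressors of the clock. They were chosen by a rule that had the diet difference of these same libraries in view, and were matched to table rows by pig gene symbol. Of the 10, 9 matched 1 row each among the 22844 rows of each table. PER3 had no matched row. All 9 passed the filter on low values, a mean TPM of at least 0.5 over the 6 libraries, as did 14908 rows in all. TPM is a level per transcript length, with each library scaled to the same sum. The animals were crosses of Duroc, Landrace and Yorkshire, and the tissue was whole fat, from which total RNA was sequenced. One group of 3 libraries came from a control diet and the other 3 from the diet supplemented with resveratrol, a plant polyphenol, at 400 mg/kg. The labels name no age, no hour of tissue collection, and no separate animal for each library, so errors measure the spread between these libraries, which may be technical.

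The circadian clock is a feedback loop of transcription that runs in nearly every cell, fat cells included. BMAL1 pairs with CLOCK, or with its relative NPAS2, and the pair binds E-box sequences and activates the PER and CRY genes, the NR1D1 and NR1D2 genes and many outputs. The PER and CRY proteins return to the nucleus and inhibit the pair, and the REV-ERB receptors encoded by NR1D1 and NR1D2 repress BMAL1 and other activator genes. Levels of these transcripts therefore vary with the hour of the day, with NR1D1 and BMAL1 roughly opposite in phase.

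Libraries held 16251536 to 37943877 reads, with control 2 the shallowest. Control 2 stood apart on the first principal component (33.6% of variance), and control 1 and resveratrol 3 lay at opposite ends of the second (26.6%), so the fitted value of each clock gene is given below with its range when 1 library at a time was left out. The adipocyte markers ADIPOQ and FABP4 were high in every library, whereas LEP was down to 8.57 TPM in resveratrol 2. All 8 of the adipocyte list were measured, and 6 had a positive fitted log2 fold change. LPL and LEP had negative ones, at -0.12 and -0.67. ADIPOQ averaged 3817 ± 215 TPM on the control diet and 4565 ± 123 TPM on resveratrol (SD, n = 3 each). The summed level of the list, most of it FABP4, ran from 17773 to 24838 TPM on the control diet and from 21640 to 27333 TPM on resveratrol.

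Most repressor genes of the clock lay lower in resveratrol by their fitted values, with CRY1 near 0 at -0.06 (SE 0.23). The activator BMAL1 lay higher, at 0.35 (SE 0.27) with overlapping groups. All 6 measured repressors had a negative fitted log2 fold change, with a median of -0.72, and of the 3 activators CLOCK and NPAS2 had negative values and BMAL1 a positive one. Over the 9 genes the median log2 fold change was -0.41, with 8 below 0, beside a median of -0.0075 and 51.2% below 0 over all 14908 rows tested. In edgeR's quasi-likelihood test, 0 of the 9 had a Benjamini-Hochberg adjusted p under 0.05, as for 0% of all rows. At an unadjusted p under 0.05, edgeR had 973 rows (6.53%), 644 of them lower (4.32%) and 329 higher (2.21%), and the lower rows held 5 of the 9 clock genes and the higher rows 0. The 973 became 403 without resveratrol 3, 556 without resveratrol 1 and 1681 without control 3. DESeq2 on the same counts called 40 rows, 32 of them lower (0.215%), and these held 3 of the 9, NR1D1, PER1 and PER2. In TPM, 6 of the 9 had all resveratrol libraries below all control libraries, as did 8.15% of all rows, and 0 of the 9 had them all above, as did 4.11% of all rows. On counts scaled by the trimmed mean of M values (TMM) it was again 6 of 9, beside 6.97% of rows lower and 5.67% higher without overlap. The genes were named with this contrast known, so these counts and the values that follow are a description. In whole tissue, fewer cells of a type and less RNA per cell cannot be told apart.

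**Figure D1:**
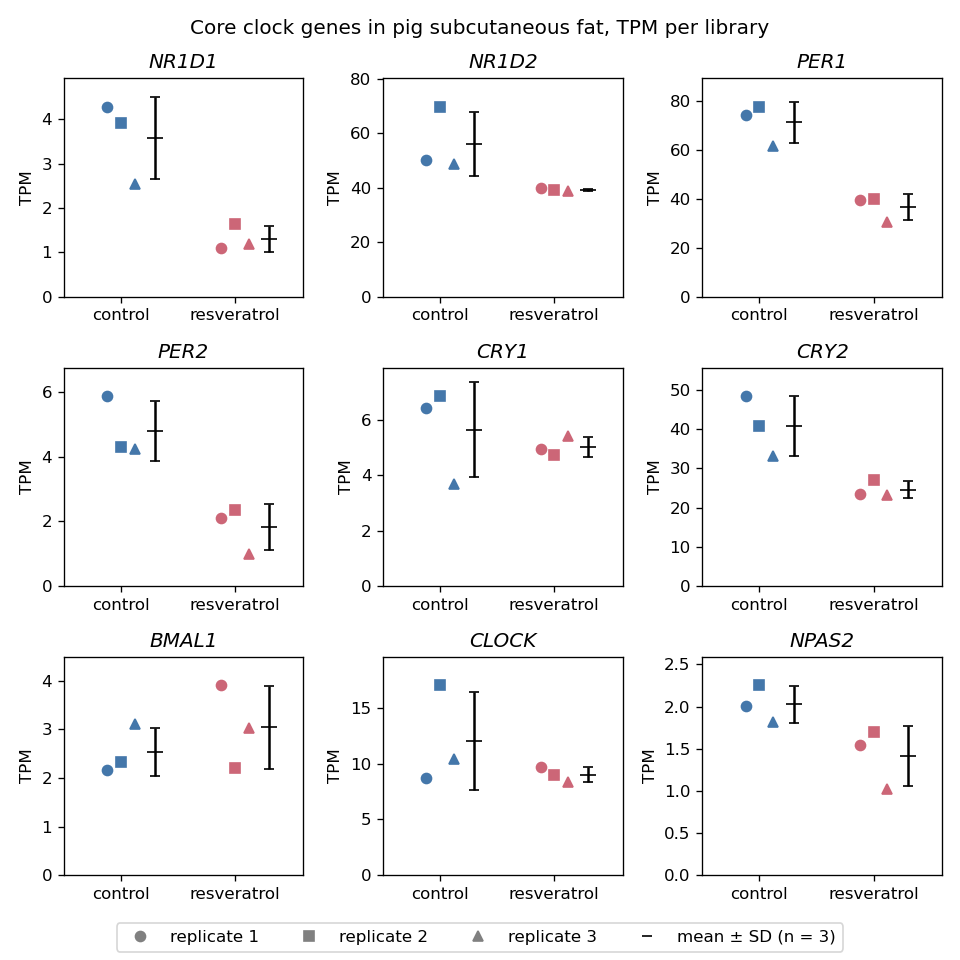
TPM of the 9 measured clock genes in each library, with each vertical axis starting at 0; symbols mark the replicate, and the black bar is the mean ± SD of 3 libraries. NR1D1, NR1D2, PER1, PER2, CRY2 and NPAS2 have no overlap between the diets, and CRY1, CLOCK and BMAL1 overlap.

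NR1D1 (ENSSSCG00000036933.1) encodes REV-ERB alpha, a haem-binding nuclear receptor that represses BMAL1. It measured 4.28, 3.92 and 2.53 TPM in control 1, 2 and 3 against 1.09, 1.65 and 1.18 TPM in resveratrol 1, 2 and 3. The lowest control library was still above the highest resveratrol library. Its fitted level was 2.59-fold lower in resveratrol, with a log2 fold change of -1.37 (SE 0.26) that ran from -1.55 to -1.15 when 1 library was left out. These values rest on 122 to 392 reads per library.

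NR1D2 (ENSSSCG00000027017.2), which encodes the related receptor REV-ERB beta, was far more abundant and differed less between the diets. It measured 50.3, 69.6 and 48.5 TPM in the control libraries and 39.7, 39.1 and 38.8 TPM in the resveratrol libraries. The resveratrol libraries were nearly level, and control 2 was high among the controls. The log2 fold change was -0.40 (SE 0.15, range -0.45 to -0.33).

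PER1 (ENSSSCG00000017983.4), whose protein with CRY inhibits the BMAL1 and CLOCK pair and whose gene also responds to glucocorticoids and cyclic AMP, was the most abundant member in control. It measured 74.4, 77.6 and 61.8 TPM on the control diet and 39.4, 40.002 and 30.4 TPM on resveratrol. All control libraries lay well above all resveratrol libraries. The log2 fold change of the counts was -0.79 (SE 0.18, range -0.86 to -0.64), a 1.73-fold lower level, on 2815 to 6196 reads per library.

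PER2 (ENSSSCG00000016338.3), whose protein joins CRY in the inhibitory complex, measured 5.88, 4.30 and 4.23 TPM on the control diet and 2.12, 2.35 and 1.003 TPM on resveratrol. Resveratrol 3 was the lowest library and control 1 the highest, and the groups did not overlap. The log2 fold change was -1.34 (SE 0.29, range -1.53 to -1.07), or 2.53-fold lower.

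The cryptochromes CRY1 and CRY2 encode the strongest inhibitors of the activator pair, and they differed from each other here. CRY2 (ENSSSCG00000013270.3) measured 48.4, 40.8 and 33.2 TPM on the control diet and 23.4, 27.1 and 23.1 TPM on resveratrol, with no overlap. Its log2 fold change was -0.65 (SE 0.19, range -0.75 to -0.45). CRY1 (ENSSSCG00000000164.3) measured 6.43, 6.87 and 3.69 TPM on the control diet and 4.95, 4.72 and 5.41 TPM on resveratrol. Control 3 was the lowest CRY1 library of all and the other control libraries the highest, so the resveratrol libraries lay inside the control range. The log2 fold change of CRY1 was -0.06 (SE 0.23) and ran from -0.26 to 0.11 when 1 library was left out.

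Among the activators, BMAL1 (ENSSSCG00000013397.3), the obligate partner in the pair, was the only member with a positive fitted value. It measured 2.17, 2.33 and 3.10 TPM on the control diet and 3.91, 2.20 and 3.03 TPM on resveratrol. The groups overlapped, with resveratrol 2 among the low libraries and control 3 among the high ones. The log2 fold change was 0.35 (SE 0.27), and it was 0.16 without resveratrol 1 and 0.59 without control 3. BMAL1 had 108 to 454 reads per library.

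CLOCK (ENSSSCG00000008909.3), the partner of BMAL1, measured 8.75, 17.0 and 10.4 TPM on the control diet and 9.70, 9.02 and 8.32 TPM on resveratrol. Control 2 alone was high. The log2 fold change was -0.30 (SE 0.19) with all libraries, and it ran from -0.44 without control 1 to -0.08 without control 2. NPAS2 (ENSSSCG00000008171.3), the relative that can take the place of CLOCK, measured 2.01, 2.25 and 1.81 TPM on the control diet and 1.54, 1.70 and 1.02 TPM on resveratrol. Its groups did not overlap but lay close, and the log2 fold change was -0.41 (SE 0.22), from -0.53 without resveratrol 2 to -0.24 without resveratrol 3.

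**Figure D2:**
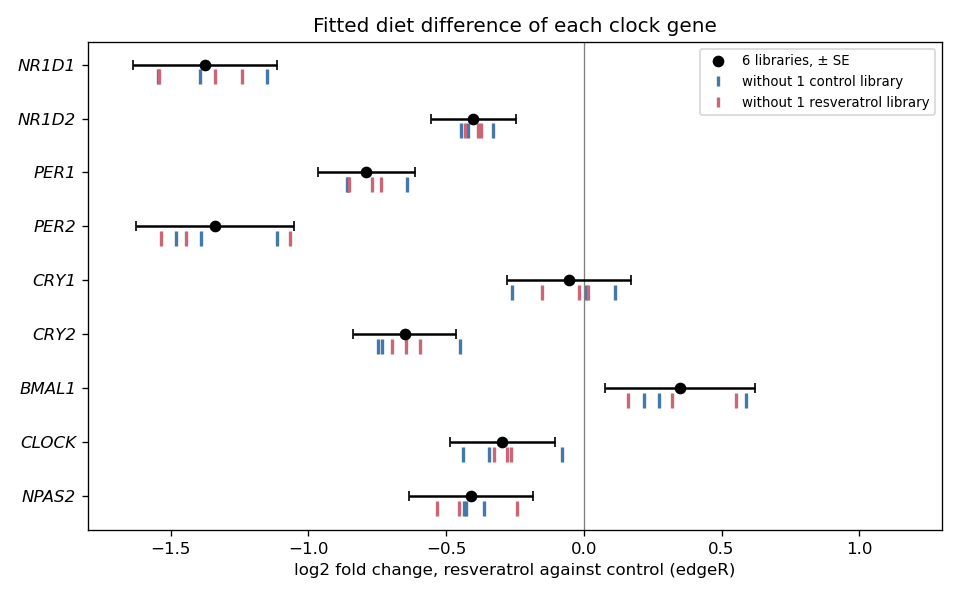
Log2 fold change of each clock gene, resveratrol against control, from edgeR on 6 libraries (black point, bar ± SE), with ticks for the value when 1 control (blue) or 1 resveratrol (red) library is left out. NR1D1 and PER2 lie farthest below 0, at -1.37 and -1.34, the CRY1 ticks fall on both sides of 0, and all BMAL1 ticks lie above 0.

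Within a group, members did not move as 1 block. On TMM-scaled counts, control 1 was the highest control library for 6 of the 9 genes, NR1D1, PER1, PER2, CRY1, CRY2 and NPAS2. Control 3 was the lowest control library for 6 of the 9, and for BMAL1 it was the highest. In the resveratrol group, resveratrol 2 was the highest library for NR1D1, PER1, PER2, CRY2 and NPAS2 and the lowest for BMAL1, CLOCK, CRY1 and NR1D2. In both groups the library with the highest BMAL1 was thus the one with the lowest NR1D1, control 3 and resveratrol 1. The converse held only in the resveratrol group. Among the controls, BMAL1 was lowest in control 2 and NR1D1 highest in control 1. This order within a group does not use the diet difference, but with 3 libraries per group it carries no test.

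Levels per transcript length spanned a wide range, and 1 relative of each pair or family was the more abundant in every library. In control the order by mean TPM was PER1, NR1D2, CRY2, CLOCK, CRY1, PER2, NR1D1, BMAL1 and NPAS2, from 71.2 ± 8.36 to 2.03 ± 0.220 TPM (SD, n = 3). The ranges of PER1 and NR1D2 overlapped, as did those of each neighbouring pair from CRY1 down to NPAS2, whereas NR1D2, CRY2, CLOCK and CRY1 had separate ranges. In resveratrol the order was NR1D2, PER1, CRY2, CLOCK, CRY1, BMAL1, PER2, NPAS2 and NR1D1, from 39.2 ± 0.470 to 1.31 ± 0.299 TPM. There the ranges of NR1D2 and PER1 overlapped, and so did those of each neighbouring pair from BMAL1 down to NR1D1.

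Ratios of TPM within a library do not depend on how libraries are scaled against each other. PER1 over BMAL1 was 34.3, 33.3 and 19.9 in control 1, 2 and 3 and 10.1, 18.2 and 10.03 in resveratrol 1, 2 and 3. NR1D1 over BMAL1 was 1.97, 1.68 and 0.816 in control and 0.279, 0.747 and 0.390 in resveratrol. Both ratios were lower in every resveratrol library, with control 3 and resveratrol 2 close to each other. PER2 over BMAL1 averaged 1.97 ± 0.682 in control and 0.646 ± 0.377 in resveratrol, also with no overlap. PER1, NR1D1 and PER2 alone had no overlap, and BMAL1 overlapped. The differences in ratio thus follow in large part from the members' own diet differences above.

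Ratios between relatives showed which copy dominated the transcript pool. NR1D2 exceeded NR1D1 from 11.7 to 19.2 times in control and from 23.7 to 36.4 times in resveratrol. CRY2 exceeded CRY1 from 5.94 to 9.02 times in control and from 4.27 to 5.73 times in resveratrol. These differences in ratio follow from the members' own diet differences above. PER1 exceeded PER2 from 12.6 to 30.3 times and CLOCK exceeded NPAS2 from 4.35 to 8.17 times over the 6 libraries, with overlapping groups.

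**Figure D3:**
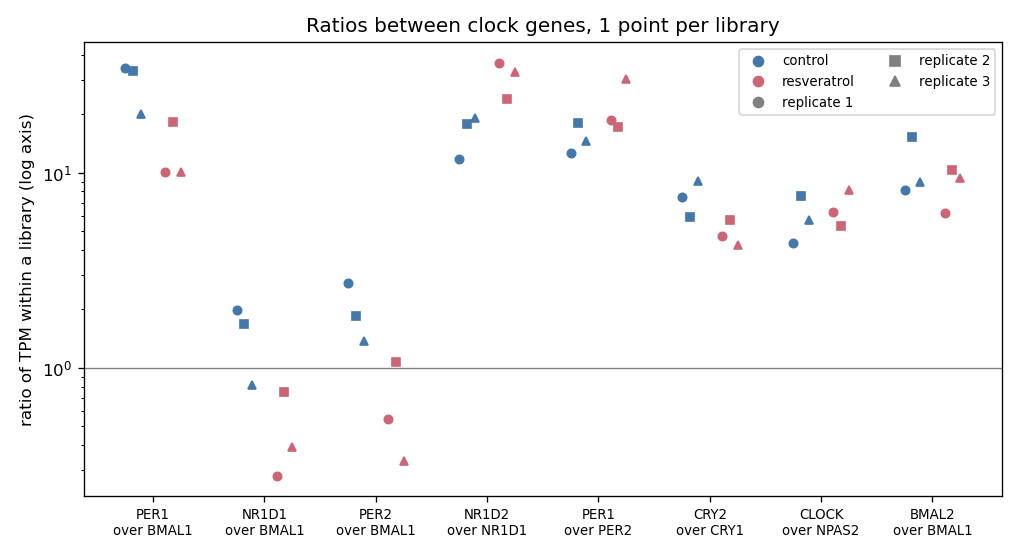
Ratio of TPM between pairs of clock genes within each library, on a log axis, with control in blue and resveratrol in red and symbols for the replicate; the grey line marks a ratio of 1. The ratios of NR1D1, PER1 and PER2 to BMAL1 are lower in all resveratrol libraries, and those of BMAL2 to BMAL1, PER1 to PER2 and CLOCK to NPAS2 overlap.

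BMAL2 (ENSSSCG00000000551.3), a relative of BMAL1 that can also pair with CLOCK, was listed among the partners of the clock complex and had the higher level of the pair. It averaged 26.9 ± 8.90 TPM on the control diet and 25.1 ± 2.81 TPM on resveratrol (SD, n = 3 each), and BMAL1 averaged 2.54 ± 0.498 and 3.05 ± 0.852 TPM. BMAL2 exceeded BMAL1 in all 6 libraries, from 6.20 times in resveratrol 1 to 15.2 times in control 2. Its log2 fold change between diets was 0.03 (SE 0.22) and ran from -0.17 to 0.16 when 1 library was left out.

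The relation of reads to TPM, a readout that the choice of genes did not use, set PER1 apart from the other members. Reads per TPM, after scaling each library on 2845 genes with a single transcript, track the length the authors assigned to a gene in that library. For 8 of the 9 clock genes this index varied by 0.638% (CRY2) to 2.95% (NPAS2) between the lowest and the highest library. For PER1, which has 5 listed transcripts, it varied by 18.7%, more than in 97.2% of the 5728 genes with more than 1 transcript, whose median was 1.47%. The PER1 index was 104, 91.5 and 94.5% of its mean in control 1, 2 and 3 and 95.9, 106 and 109% in resveratrol 1, 2 and 3, so the groups overlapped. On log2(TPM + 0.5) in limma the PER1 log2 fold change was -0.96, beside -0.79 from the counts. The median over all rows was also lower in that fit, at -0.079 beside -0.0075 from the counts. The part of the index in the PER1 gap was not tested. The transcript that each read came from is not in the tables used here.

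**Figure D4:**
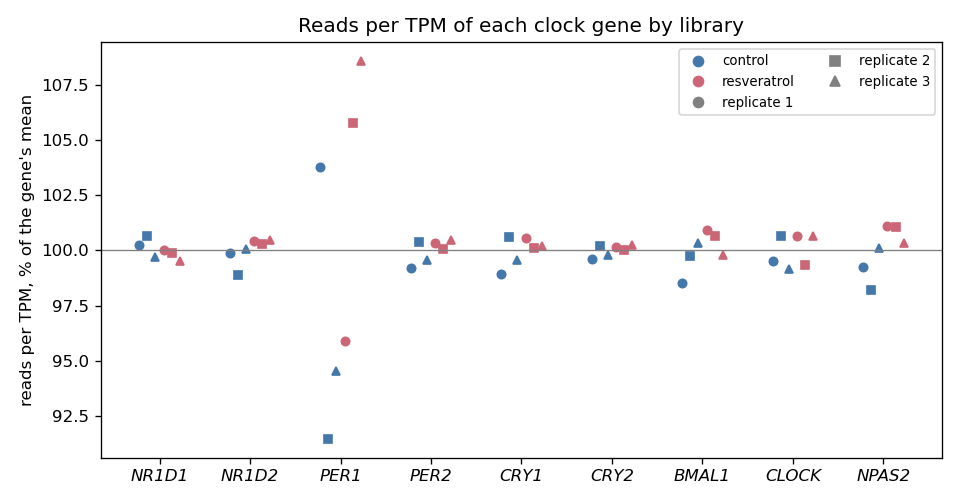
Reads per TPM of each clock gene in each library, as a percentage of the gene's mean over 6 libraries, with control in blue and resveratrol in red; the vertical axis does not start at 0. PER1 ranges from 91.5% in control 2 to 109% in resveratrol 3, and the other genes stay near 100%.

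Clock output transcription factors carry the rhythm to other genes. Of 7 tested, 6 had negative values, the median log2 fold change was -0.34, and none passed edgeR's adjusted threshold. In TPM, 2 of the 7 were lower without overlap, beside 8.15% of all rows. Of the others, CIART ran to 0.07 when 1 library was left out. BHLHE40 and BHLHE41 encode DEC1 and DEC2, which compete for E-boxes. BHLHE40 measured 21.6, 15.2 and 14.7 TPM on the control diet and 9.22, 11.2 and 10.2 TPM on resveratrol, with no overlap and a log2 fold change of -0.68 (SE 0.21). BHLHE41 was low, at 2.86 ± 0.667 and 1.76 ± 0.355 TPM, with overlapping groups. TEF, a PAR bZIP activator of D-box genes, averaged 23.3 ± 3.23 and 17.6 ± 4.91 TPM. The factor with a positive value, named after its value was seen, was NFIL3, the D-box repressor, at 5.16, 10.6 and 6.73 TPM on the control diet and 11.05, 10.002 and 8.96 TPM on resveratrol (log2 fold change 0.54, SE 0.20).

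RORA encodes a receptor that activates BMAL1 at the elements where REV-ERB receptors repress it. It averaged 11.9 ± 2.05 TPM on the control diet and 10.6 ± 1.18 TPM on resveratrol, with a log2 fold change of -0.09 (SE 0.17) that ran from -0.19 to 0.05 when 1 library was left out. RORB lay below the filter.

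**Figure D5:**
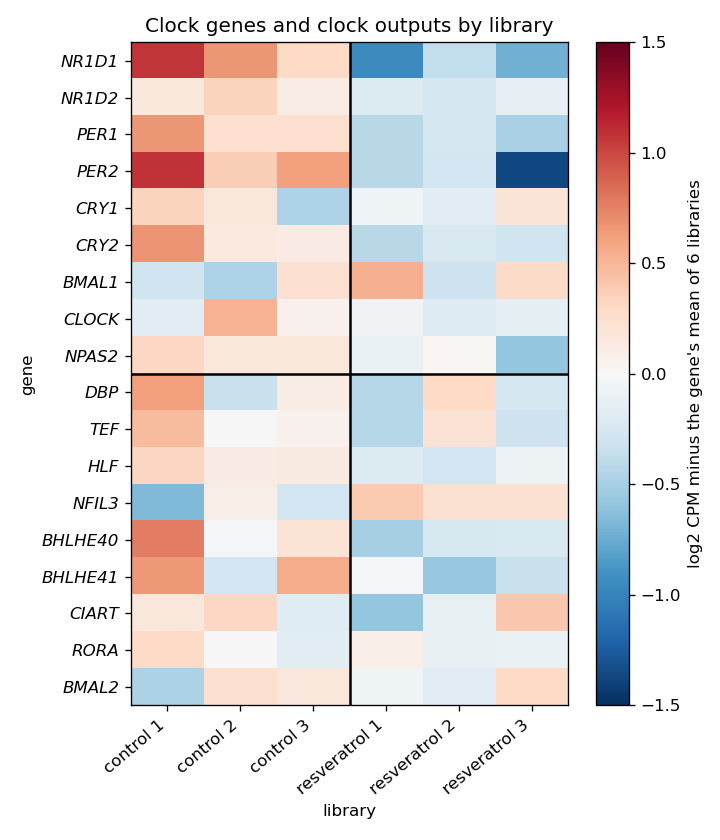
Log2 CPM (counts scaled by TMM to a common library size) of the 9 clock genes (above the line), the 7 output factors, RORA and BMAL2 in each library, minus the gene's mean of 6 libraries. NR1D1, PER1, PER2, CRY2 and BHLHE40 are above their mean or near it in the control libraries and below it in the resveratrol libraries, and NFIL3 has its highest library in the resveratrol group.

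Kinases, ubiquitin ligases and proteases that set the life of clock proteins had a median log2 fold change of -0.17. Of 12 named, 10 matched a row and were tested, 8 had negative values and none passed edgeR's adjusted threshold. CSNK2B, a subunit of casein kinase 2, averaged 27.8 ± 5.30 and 24.6 ± 4.43 TPM. CSNK1D, the kinase that phosphorylates PER, averaged 16.2 ± 0.653 and 12.6 ± 1.75 TPM with no overlap (log2 fold change -0.29, SE 0.16). USP2, a rhythmic ubiquitin protease, was low overall and highest in control 1, at 2.16 TPM against 0.474 to 1.06 TPM in the other libraries.

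Of 10 partners of the clock complex, 9 were tested, 7 had negative values, the median was -0.19 and none passed. The acetyltransferases CREBBP and EP300, coactivators of the BMAL1 pair, had fitted log2 values of -0.49 (SE 0.16) and -0.48 (SE 0.19) for the diet difference, and in TPM neither had overlapping groups. NONO, an RNA-binding partner of PER, averaged 67.1 ± 4.65 and 69.2 ± 3.79 TPM. TIMELESS lay below the filter.

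Of 10 genes of hormone and cyclic AMP input to PER1, 9 were matched and tested, 7 had negative values, the median was -0.27 and none passed. SIK1, a kinase induced by cyclic AMP that restrains the CREB coactivators, measured 24.3, 38.6 and 32.8 TPM on the control diet and 22.6, 22.4 and 14.2 TPM on resveratrol, with no overlap. CRTC3, such a coactivator, averaged 8.74 ± 1.01 and 5.50 ± 0.899 TPM, also with no overlap. NR3C1, the glucocorticoid receptor, averaged 36.3 ± 5.53 and 35.2 ± 3.57 TPM, and its target ZBTB16 averaged 48.2 ± 8.64 and 35.0 ± 0.975 TPM.

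Summed levels of some other cell type markers also differed between the diet groups, though 0 of these markers passed edgeR's adjusted threshold. In TPM, 2 of the 8 macrophage markers were higher without overlap, beside 4.11% of all rows. Of the 5 tested tendon and cartilage markers, 2 were lower without overlap, beside 8.15% of all rows. The summed level of 6 tendon and cartilage markers was 101.6, 7.69 and 25.0 TPM in control 1, 2 and 3 against 3.22 to 5.17 TPM on resveratrol, and that of 8 macrophage markers was 322 to 380 TPM on the control diet and 400.5 to 573 TPM on resveratrol. Their part in the clock differences was not tested. With all libraries, the log2 fold changes of NR1D1, PER2, PER1 and CRY2 were -1.37, -1.34, -0.79 and -0.65. Without control 1, where tendon markers were highest, they were nearer to 0, at -1.15, -1.11, -0.64 and -0.45. Control 1 was also the highest control library for these 4 genes on TMM-scaled counts, so a move towards 0 was fixed in advance. NR1D2 and CLOCK moved away from 0, to -0.42 and -0.44, and NPAS2 and BMAL1 nearer, to -0.36 and 0.27. CRY1 went from -0.06 to 0.11. Control 2, whose tendon sum was nearest to the resveratrol libraries, measured 3.92, 4.30, 77.6 and 40.8 TPM of NR1D1, PER2, PER1 and CRY2. That is 1 library, the shallowest and the 1 apart on the first principal component. Its values are a description, and the part of tendon tissue was not tested. Sums of the 5 measured endothelial markers were 209 to 278 TPM on the control diet and 202 to 222 TPM on resveratrol, and those of 6 fibroblast markers 4414 to 7599 and 4045 to 5636 TPM. The 4 measured T lymphocyte markers summed to 6.78 to 9.42 TPM on the control diet and 6.92 to 17.8 TPM on resveratrol. Skeletal muscle markers, 3 of 8 measured, summed to at most 1.40 TPM in any library. Of the epidermal markers, 4 of 6 were measured, KRT1 was listed at 0 in every library, and the sum was 6.86 to 10.3 TPM on the control diet and 6.16 to 8.29 TPM on resveratrol.

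Genes whose pattern over the 6 libraries was most like that of NR1D1 or BMAL1 were named from the tested genes with a symbol outside the clock genes, by Pearson correlation of log2 CPM, counts scaled to a common library size. Nearest to NR1D1 were FOXJ2 (r = 0.995), ANXA9 (r = 0.989), KIAA1958 (r = 0.981) and HOXC6 (r = 0.980), all at low levels. FOXJ2 averaged 2.48 ± 0.439 TPM on the control diet and 1.44 ± 0.197 TPM on resveratrol, and HOXC6 averaged 2.60 ± 0.400 and 1.47 ± 0.163 TPM. Nearest to BMAL1 were RAB8A (r = 0.987), UBE2D2 (r = 0.978), SMIM11 (r = 0.972) and CFAP20 (r = 0.970). RAB8A averaged 9.60 ± 0.881 and 9.62 ± 0.827 TPM. These are the highest of 11422 genes over only 6 libraries that share the diet step, and they are a description.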

How the data were processed

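Total RNA of 6 fat libraries was prepared with an lncRNA kit, per the labels' protocols. For every library the authors deposited read counts and TPM per gene, per the file headers. The submitters' processing notes name Bowtie 0.12.2 and mouse builds, and the sources used here do not give the pig annotation, counting program or strand handling. No coordinates or sequences are therefore printed, and reads of overlapping genes cannot be separated. Symbols came from a table of gene identifiers, and 14750 of 22844 rows matched.

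The filter kept 14908 rows whose TPM averaged 0.5 or more. Counts were scaled by TMM and tested with edgeR 4.0.16 (robust quasi-likelihood, Benjamini-Hochberg over all tested rows, threshold 0.05) in R 4.3.3, and fold changes are resveratrol against control. SE is the size of the log2 fold change divided by the square root of F. The fit was tested on simulated data. DESeq2 1.42.0, limma 3.58.1 on log2 TPM, other filters, a replicate block and each library left out were alternatives. For reads per TPM, the scaling genes and the comparison genes had at least 200 reads in each library. The clock genes were kept without that minimum, and NR1D1, BMAL1 and NPAS2 had libraries below it. The clock genes and lists were chosen with earlier results of these data known. Each other pathway list names its 2 genes of highest mean TPM and the 2 with the largest fold change, and 4 genes were taken for each pattern. Some genes that this rule takes are not reported here.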

Additional observations from a re-analysis of the deposited data

How the results depend on the processing

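Over 15 alternatives, the number of clock genes lower in resveratrol was 7 or 8 of 9, and BMAL1 stayed positive and NR1D1, NR1D2, PER1, PER2, CRY2, CLOCK and NPAS2 negative in all 15. CRY1 turned positive without control 1 (0.11), control 2 (0.01) or resveratrol 2 (0.01), and ran down to -0.26 without control 3. DESeq2 called 40 rows and 3 of the clock genes, NR1D1, PER2 and PER1 (adjusted p = 0.00260, 0.00922 and 0.0159), where edgeR's adjusted p for them was 0.690 and ran from 0.252 to 0.99996 over its fits that left out a library; the cause was not tested. Rows called in edgeR ran from 0 to 5 when 1 library was left out, with 5 without control 2, and clock genes called stayed at 0. The median over the clock genes was -0.49, -0.49 and -0.51 in limma with pseudocounts of 0.5, 1 and 0.1. Over all rows the median in these fits was -0.079, -0.073 and -0.084, beside -0.0075 in the main edgeR fit. When 1 library was left out, the median over the clock genes ran from -0.53 to -0.43. With the replicate block, 0 rows and 0 clock genes were called and the median was -0.43, with 1259 rows at an unadjusted p under 0.05. Replicate numbers were not shown to pair the libraries, since the correlations of same-numbered deviations were 0.157, 0.0741 and 0.200, although each library correlated best with its own number. Depth limits NR1D1, BMAL1 and NPAS2 most, with as few as 122, 108 and 133 reads.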

Other observations

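NFIL3 is a known repression target of the REV-ERB receptors, and its level relative to NR1D1 was looked at after the values were seen. NFIL3 over NR1D1 in TPM was 1.20, 2.70 and 2.66 in control 1, 2 and 3 and 10.1, 6.07 and 7.60 in resveratrol 1, 2 and 3. The ratio had no overlap, but neither did NR1D1 alone, so it follows in large part from the NR1D1 values. NFIL3 alone overlapped, with control 2 at 10.6 TPM above resveratrol 2 and 3 at 10.002 and 8.96 TPM. Repression of NFIL3 was not tested. NFIL3 over DBP, its activating counterpart at D-box elements, was 0.344, 1.11 and 0.636 in control and 1.46, 0.790 and 1.16 in resveratrol, with control 2 inside the resveratrol range. DBP itself measured 15.0, 9.50 and 10.6 TPM in control against 7.57, 12.7 and 7.72 TPM in resveratrol.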
